A study of Saccharomyces cerevisiae with 6 samples.

Results

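Long antisense transcripts of single genes were examined in budding yeast with and without the RNA helicase Dbp2. They are the non-coding transcripts of 1200 bp or more that the deposited antisense table lists against exactly 1 gene and that are the longest listed transcript of that gene. This rule uses only coordinates and gave 296 transcripts out of 2169 distinct transcripts in the table. TT-seq (transient transcriptome sequencing), in which a short pulse of 4-thiouracil marks RNA made during the pulse so that it can be pulled down and sequenced, was performed on 3 *dbp2Δ* and 3 wild-type (WT) cultures, described in the paper as biological replicates. The *dbp2Δ* strain is MATalpha, with *dbp2* replaced by KanR in a *ura3Δ0 leu2Δ0 his3Δ0 TRP1 MET LYS* background, and the WT strain is BY4741, which is MATa and *his3Δ1 leu2Δ0 met15Δ0 ura3Δ0*. Both carried the empty URA vector pRS426, grew in SD-URA with 2% glucose at 30 °C to an OD600 of 0.5 and received 0.32 mg/ml 4-thiouracil for 10 min. The strains therefore also differed in mating type and in marker genes, and these differences cannot be told apart from the loss of *DBP2*.

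Gene counts summed to between 6968216 and 8659542 per library in *dbp2Δ* and between 11177517 and 13134963 in WT. *DBP2* itself had 0, 0 and 2 counts in *dbp2Δ*, against 10976, 11136 and 11213 in WT. *MET17*, the gene deleted in *met15Δ0* strains, had 1505 to 2030 counts in *dbp2Δ* and 0 in WT. *LYS2* had 4477 to 5894 counts in *dbp2Δ* and 0 to 1 in WT, although the WT genotype as given names no change at *LYS2*. The a-specific and α-specific genes followed the mating types. WT replicates were further apart than *dbp2Δ* replicates, with a median coefficient of variation over the 296 transcripts of 8.14% in *dbp2Δ* and 15.7% in WT. WT replicate 3 was at or above 2 times the mean of the other WT libraries at 13 of the 296. All further counts are normalized, that is, scaled to the mean effective library size, and are given in the order of replicates 1, 2 and 3 of a strain.

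Budding yeast transcribes many regions opposite its genes, and the products are sorted by the RNA decay pathway they meet. CUTs are degraded in the nucleus by the exosome after termination by Nrd1, Nab3 and Sen1, SUTs are stable enough to be seen in unmutated cells, and XUTs accumulate when the cytoplasmic 5′-3′ exonuclease Xrn1 is lost. Dbp2 is a DEAD-box helicase that unwinds RNA duplexes, associates with transcribed chromatin and has been linked to termination and to repression of spurious transcription. By the published class of each transcript, the 296 held 191 XUTs, 86 SUTs, 18 CUTs and 1 transcript without a class. They were 1201 to 5195 bp long, with a median of 1655 bp.

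A gene lay wholly within its transcript in 135 of the 296 pairs, called spanning here. A further 72 transcripts ran past only the end of the gene, 61 ran past only its start and 28 lay inside it. Past the gene start, where the promoter lies, 196 of the 296 transcripts ran on, and 135 of them did so by 200 bp or more. The longest transcript was opposite *CSS1* at 5195 bp, followed by those opposite *YCF1*, which encodes a vacuolar transporter of glutathione conjugates, at 4209 bp and opposite the hexose transporter gene *HXT13* at 4079 bp. In the R64 annotation, 2 of the 296 overlapped an annotated gene on their own strand, and these are the transcripts opposite *GAL10* and *TAT1*. A further annotated gene on the opposite strand was overlapped by 4, those listed against *GAL1*, *TIR1*, *YSR3* and *ASR1*, and its reads may also be in their counts. Another listed transcript overlapped 172 of the 296 on the same strand.

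**Figure D1:**
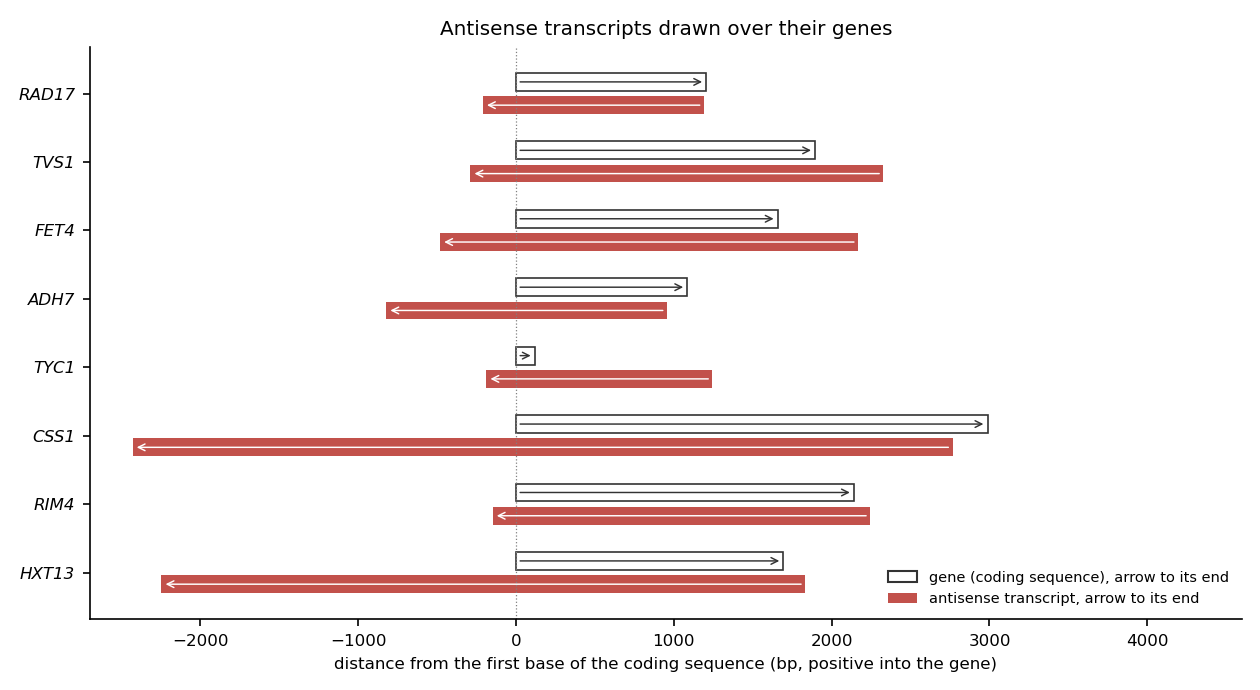
Antisense transcripts (red bars) drawn over 8 of their genes (open bars), with distance from the first base of the coding sequence in bp on the horizontal axis and arrows pointing to the end of each unit. The transcript opposite *CSS1* runs 2429 bp past the gene start, that opposite *HXT13* 2246 bp, and that opposite *RIM4* only 148 bp.

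Nrd1 and Nab3 read short RNA motifs, so the DNA letters GTAA and GTAG (Nrd1) and TCTT (Nab3) were searched on the strand of each transcript in the R64 genome, counting overlapping matches. The 30 bases with the most such letters are shown for 8 transcripts whose values are described further on, with the matched letters in capitals, 5′ to 3′ on the transcript strand. They were read from RefSeq R64 sequence.
*RAD17* (YOR368W) antisense, chrXV:1027953-1027982, minus strand: gtttttattgtttTCTTCTTcagatgGTAG
*TVS1* (YCR061W) antisense, chrIII:225817-225846, minus strand: tgtGTAGTAAaGTAGgttgtggtgttGTAG
*FET4* (YMR319C) antisense, chrXIII:912471-912500, plus strand: GTAAaaagataaaaagaccaGTAAatGTAA
*ADH7* (YCR105W) antisense, chrIII:309569-309598, minus strand: cattTCTTaGTAGtggagagaaaactGTAA
*HXT13* (YEL069C) antisense, chrV:25100-25129, plus strand: tGTAGTAAataaccacttttTCTTacGTAG
*CSS1* (YIL169C) antisense, chrIX:24323-24352, plus strand: acaccattGTAGtttagGTAGTAAgcGTAA
*RIM4* (YHL024W) antisense, chrVIII:56602-56631, minus strand: aagataatattttttTCTTTCTTTCTTCTT
*FLO11* (YIR019C) antisense, chrIX:392737-392766, plus strand: tggaGTAGTAGTCTTCTTagtgcatgTCTT
The windows of *FET4*, *HXT13* and *RIM4* lie outside the gene and the other 5 within it. Over the 296 transcripts the densest window held a median of 12 matched bases, with a range of 4 to 18.

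The letters were about as frequent in the 296 transcripts as in the whole table. The median was 8.20 Nrd1 matches and 8.26 Nab3 matches per kb in the 296, beside 8.16 and 8.80 in all 2169. On the reverse strand of the 296, which is the strand of the gene, the medians were lower at 5.83 and 5.94 per kb. The whole table showed the same, with 5.59 and 5.42 on the reverse strand. The 18 CUTs had a median of 10.9 Nab3 matches per kb. The transcript opposite *FLO11*, a flocculin gene with a repetitive coding sequence, held the most Nrd1 matches at 36.9 per kb. The first 30 bases of the transcript held at least 1 match in 98 of the 296 (33.1%) and in 773 of the 2169 (35.6%). A match describes the letters only and says nothing of binding.

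The count of each transcript was first set beside the count of its gene. In all 135 spanning pairs the transcript count was at least as high as the gene count in all 6 libraries, and none of the differences was negative. Of the 28 transcripts that lie inside their gene, 7 also had counts at least as high as the whole gene in all 6 libraries. Per kb of length the transcript and gene counts were close, with a median ratio of 0.97 in spanning pairs, 1.04 and 0.96 in pairs that run past the gene end or the gene start, and 1.11 where the transcript lies inside the gene. Each of these ratios covers pairs with a mean gene count of at least 50. Of the 247 such pairs, 5 had a mean transcript count below the gene count scaled to the overlap. Where genes were hardly transcribed the transcript counts stayed well above the gene counts, and where genes were highly transcribed the points lay near equality. No source used here says whether strand was used in the counting. A transcript count is therefore read below as the reads over the transcript's coordinates. These may include reads of the gene, and no claim is made that they come from the antisense strand alone. In bulk cultures less RNA per cell and fewer cells that transcribe a locus cannot be told apart.

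**Figure D2:**
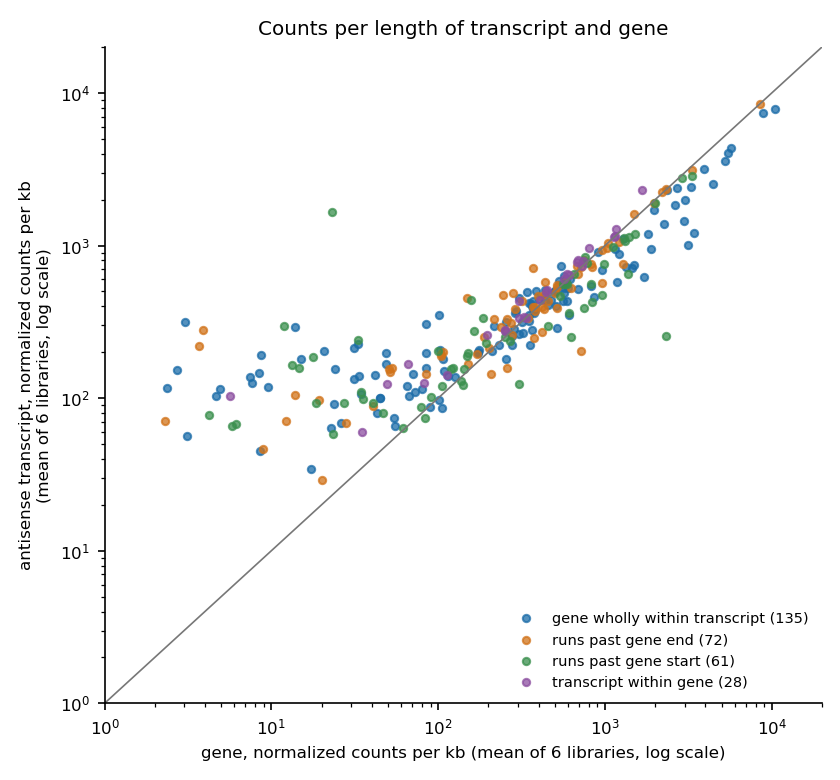
Normalized counts per kb of each antisense transcript (vertical) against those of its gene (horizontal), means of the 6 libraries on log scales, coloured by geometry, with the line of equality. Dense genes lie near the line, the median ratio of spanning pairs being 0.97, and *CSS1* is the point far above it.

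Transcript counts were higher in *dbp2Δ* at many of these loci. At an edgeR adjusted p under 0.05, 107 of the 296 (36.1%) rose and 38 (12.8%) fell, 145 in all. Over all 2167 transcripts tested, 42.2% were called, 23.1% higher and 19.1% lower. The median log2 fold change of *dbp2Δ* over WT was 0.29 in the 296 and 0.05 over all transcripts tested. Shorter longest transcripts of single genes, under 1200 bp, had 194 higher and 246 lower among 1055 tested and a median of -0.04, and the difference between the long and the short transcripts was not tested. Leaving out 1 library at a time gave 98 to 174 called, lowest without *dbp2Δ* replicate 3 and highest without WT replicate 3. Counts over the classes were 69 higher and 22 lower of 191 XUTs, 30 and 12 of 86 SUTs, and 8 and 4 of 18 CUTs. By geometry they were 44 and 17 of 135 spanning, 26 and 10 of 72 past the gene end, 27 and 7 of 61 past the gene start, and 10 and 4 of 28 inside the gene.

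Of the 18 CUTs, the class that the nuclear exosome removes, 8 rose and 4 fell. Those that fell were opposite *UBC13*, *IRC22*, *MYG1* and *ATG18*, all spanning transcripts over genes that fell, and the gene count was 68.2% to 97.7% of the transcript count in *dbp2Δ* and 85.3% to 96.7% in WT. Of the 4, only *MYG1* was also called lower in the difference between transcript and gene counts. The 8 that rose were opposite *GAL1*, *MLG1*, *DIT1*, *NEO1*, *INP2*, *YMR196W*, *ASE1* and *MEK1*. Over *DIT1*, a spore wall gene, the count was 139.8, 155 and 135 in *dbp2Δ*, against 67.7, 48.2 and 62.8 in WT, 1.26 ± 0.19 on the log2 scale (adjusted p = 0.0025). Over *ASE1*, a microtubule bundling protein gene, it was 579.6, 547 and 489 in *dbp2Δ* and 313, 267 and 220.1 in WT, and that transcript lies mostly upstream of the gene, running 1039 bp past its start. Both counts separated the strains without overlap, and *DIT1* and *ASE1* rose as genes too. The gene call of *DIT1* was lost without WT replicate 2 (log2 fold change 1.46) or any *dbp2Δ* replicate, and the transcript calls at *MLG1*, *INP2* and *YMR196W* among those that rose, and at *UBC13* and *MYG1* among those that fell, were each lost without at least 1 library. Of the 7 spanning CUTs, only that opposite *GAL1* was called higher in the difference. Subtracting the gene count in proportion to the overlap lost the rises at *GAL1*, *MLG1*, *NEO1*, *INP2* and *YMR196W* (adjusted p = 0.073 to 0.41). The rise at *ASE1* was kept (adjusted p = 0.0062). It also lost the falls at *UBC13* and *IRC22*.

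The length limit passed between the transcript opposite *MYG1* at 1201 bp and that opposite *TOS2* at 1198 bp. Just inside it, opposite *MYG1*, *YDR169C-A* (1202 bp) and *CHL4* (1205 bp), the log2 fold changes were -0.69, -0.53 and -0.25. Just outside it, opposite *TOS2*, *IDP3* (1195 bp) and *EPL1* (1193 bp), they were -0.42, -0.0019 and 0.58.

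The genes of these transcripts moved in much the same way. Of the 276 genes that passed the filter on low counts, 88 rose and 51 fell, 139 in all, with a median log2 fold change of 0.23. Over all 5943 genes tested 42.0% were called, 19.6% higher and 22.4% lower, and the median was -0.02. Without 1 library the number of genes called ran from 96 without *dbp2Δ* replicate 1 to 170 without WT replicate 3. Transcript and gene were called in the same direction in 107 of the 276 pairs, 70 higher and 37 lower, and in opposite directions in 1. Over all 1576 pairs with both counts tested, 33.2% were called in the same direction and 0.254% in opposite directions. Across the 276 pairs the 2 log2 fold changes had a Pearson r of 0.84 and a Spearman rho of 0.85, as a description over loci whose counts share libraries and scaling and may share reads.

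**Figure D3:**
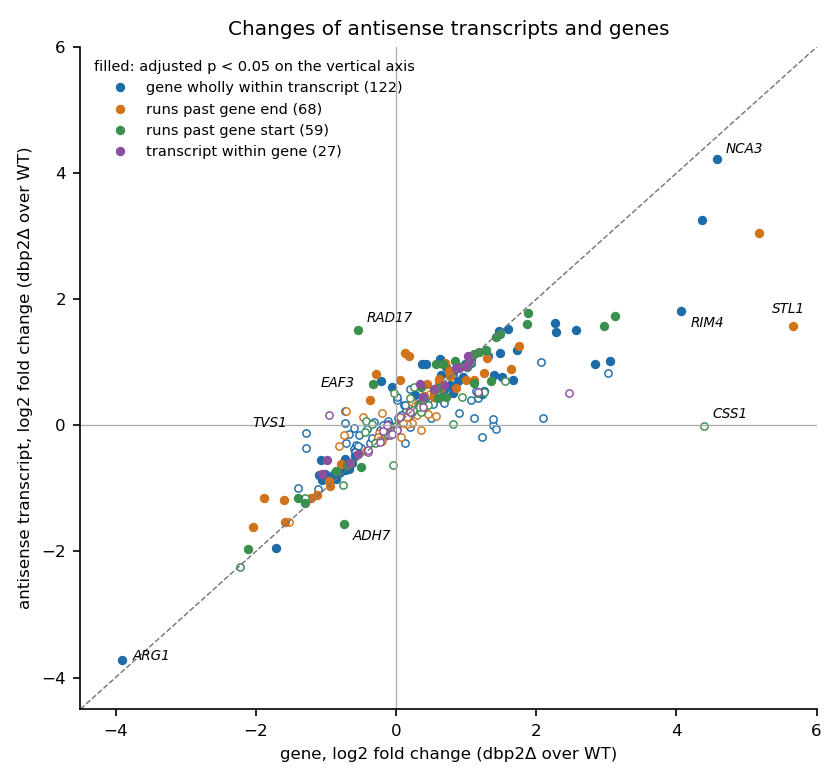
Log2 fold change of the transcript count (vertical) against that of the gene count (horizontal) for 276 pairs, *dbp2Δ* over WT, coloured by geometry and filled where the transcript was called. Most points follow the dashed line of equality, *RAD17* lies above it, and *CSS1* and *STL1* lie far below it.

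Of the 5 transcripts with the largest rises, 4 lay over genes that rose too. Over *NCA3*, a gene of the SUN family of cell wall proteins, the transcript count was 12017, 10796 and 13026 in *dbp2Δ*, against 529, 717 and 675 in WT, a log2 fold change of 4.22 ± 0.23 (SE, adjusted p = 4.3e-05). The gene count was 11149 ± 1129 in *dbp2Δ* and 465 ± 59.3 in WT (SD, n = 3 each). The strains did not overlap in either count, and the gene count was 93.4% of the transcript count in *dbp2Δ* and 72.6% in WT. Over *NRG1*, a repressor of glucose-repressed genes, the transcript count was 2932, 2858 and 2397 in *dbp2Δ* and 257, 282 and 319 in WT, 3.25 ± 0.17 on the log2 scale (adjusted p = 3.3e-05). Over *DAK2*, a dihydroxyacetone kinase gene, it was 786, 534 and 729 in *dbp2Δ* and 90.3, 98.2 and 58.1 in WT, 3.06 ± 0.23 (adjusted p = 0.00022). The gene rose by more than the transcript at both, with gene log2 fold changes of 4.37 and 5.17.

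The transcript opposite *TYC1* also rose, at a gene that was close to 0 throughout. Its count was 201, 126 and 171 in *dbp2Δ*, against 26, 16.4 and 3.87 in WT, a log2 fold change of 3.44 ± 0.48 (adjusted p = 0.0018). *TYC1* itself had 3.41 to 4.07 normalized counts in *dbp2Δ* and 0 to 3.44 in WT. The coding sequence lies near 1 end of the transcript, which runs 1125 bp past the gene end. Without WT replicate 1 the transcript's log2 fold change was 4.05.

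Of the 5 largest falls in which the strains did not overlap, 4 lay over genes that fell and 1 did not. Over *ARG1*, argininosuccinate synthetase, the transcript count was 1253, 1421 and 2118 in *dbp2Δ*, against 4146, 4755 and 54224 in WT. The strains did not overlap, but WT replicate 3 stood apart from the other WT libraries. The log2 fold change was -3.72 ± 1.00 (adjusted p = 0.020) with all libraries and -1.48 without WT replicate 3 (adjusted p = 0.00093), and the call was lost when any *dbp2Δ* replicate was left out (adjusted p = 0.068 to 0.082). Transcript counts over *FET3*, the ferroxidase of high-affinity iron uptake, were 1452, 1955 and 1765 in *dbp2Δ* and 5669.6, 5661 and 4422 in WT, -1.61 ± 0.20 on the log2 scale (adjusted p = 0.0012). Over *APJ1*, a J-domain chaperone gene, they were 867, 801 and 797 in *dbp2Δ* and 2689, 3351 and 1131 in WT, -1.54 ± 0.35 (adjusted p = 0.011), a call that was lost without *dbp2Δ* replicate 3. *GLC3* and *ADH7*, the others of the 5, are described with the differences and the loci of low gene share.

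**Figure D4:**
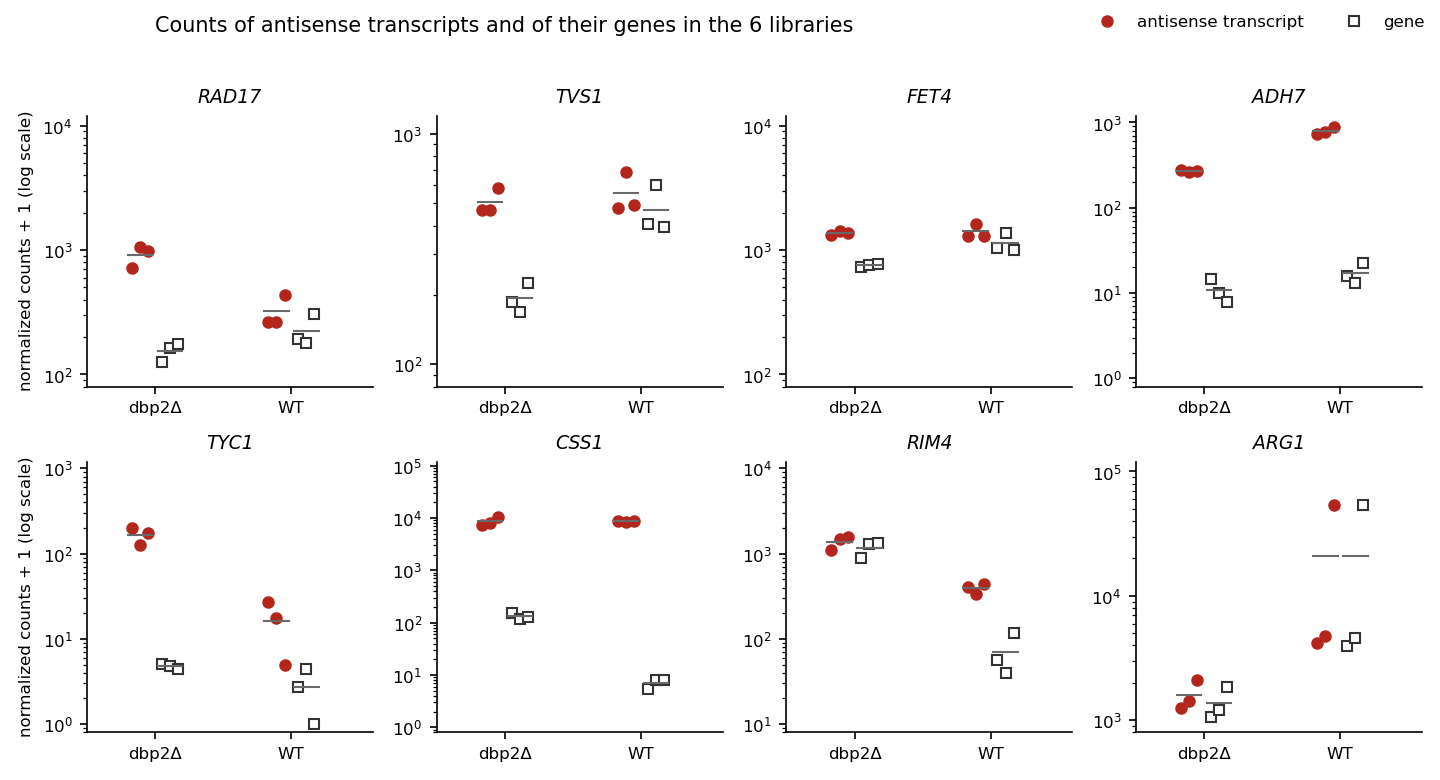
Normalized counts plus 1, on a log axis per panel, of the antisense transcript (red circles) and its gene (open squares) in each of the 3 *dbp2Δ* and 3 WT libraries, with lines at the means. At *RAD17* the transcript rises to 913 in *dbp2Δ* against 319.9 in WT while the gene does not, at *CSS1* only the gene was called, and at *ARG1* WT replicate 3 stands apart in both counts.

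The ratio of transcript to gene count within a library is free of library scaling, and it changed at fewer loci. The gene count is its denominator and may share reads with the transcript count, so a rise of the gene by itself lowers the ratio. Of 276 ratios tested, 31 rose and 26 fell, 57 in all, with a median log2 change of 0.00. Over all 1576 pairs 14.3% were called, 7.30% higher and 6.98% lower, and the median was 0.01. The number was 34 without WT replicate 2 and 28, 33 and 32 without *dbp2Δ* replicates 1, 2 and 3. Called ratios made up 32 of 122 spanning pairs and 25 of the other 154.

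*RAD17*, which encodes a component of the DNA damage checkpoint clamp, had the largest rise in the ratio. Its transcript count was 709.9, 1053 and 977 in *dbp2Δ*, against 264, 263 and 433 in WT, 1.51 ± 0.24 on the log2 scale (adjusted p = 0.0029). Its gene count was 125, 162 and 176 in *dbp2Δ* and 191, 178 and 304 in WT, -0.54 ± 0.25 (adjusted p = 0.12). Neither count overlapped between strains, and the gene's share of the transcript count was 16.9% in *dbp2Δ* and 70.1% in WT. The ratio rose by 2.05 ± 0.08 on the log2 scale (adjusted p = 0.00016). The transcript covers 98.8% of the gene, on chrXV from 1026633 to 1028033, and runs 210 bp past its start.

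The next rises in the ratio were of several kinds. At *TVS1* the ratio rose by 1.15 ± 0.06 with a lower gene count in *dbp2Δ* and a transcript count that was not called. At *FLO11* the transcript rose, with 169.7, 104 and 186 counts in *dbp2Δ* and 79.9, 71.5 and 57.3 in WT, beside gene counts of 56.5 to 103 in *dbp2Δ* and 62.8 to 89.6 in WT that overlapped. At *AAD14*, an aryl-alcohol dehydrogenase gene, the transcript count was 343, 329.9 and 320.1 in *dbp2Δ* and 223, 178 and 231 in WT, and the gene counts overlapped. The ratio rose by 1.01 ± 0.11 at *FLO11* and 0.98 ± 0.09 at *AAD14* (adjusted p = 0.0039 and 0.0022). At *PRM2*, a pheromone-regulated membrane protein gene, the ratio rose by 1.08 ± 0.23 (adjusted p = 0.031), but neither count was called and the call was lost without WT replicate 1, WT replicate 3 or *dbp2Δ* replicates 1 or 2.

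Where the ratio fell most, the gene had the larger rise or the only one, which follows from the gene count being the denominator. *CSS1* had 153, 114 and 126 gene counts in *dbp2Δ*, against 4.34, 6.89 and 6.97 in WT, 4.40 ± 0.29 on the log2 scale (adjusted p = 0.00012). Its transcript had 7309.8, 8208 and 10335 counts in *dbp2Δ* and 8854, 8248 and 8959.7 in WT, which overlapped, and the log2 change of the ratio was -4.41 ± 0.34 (adjusted p = 0.0015). *STL1*, a glycerol transporter gene, had 229, 137 and 154 gene counts in *dbp2Δ*, against 2.6, 2.58 and 4.65 in WT. Its transcript had 472, 374 and 346 counts in *dbp2Δ* and 128, 141 and 128 in WT, and the log2 change of the ratio was -4.06 ± 0.26 (adjusted p = 0.00098). Both counts at *STL1* were thus called higher, the gene by 5.66 and the transcript by 1.58 on the log2 scale. The ratio also fell at *RIM4* by 2.26, at *MCH2*, a gene related to monocarboxylate transporters, by 2.20 and at *DAK2* by 2.11.

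*EAF3*, a subunit of chromatin-modifying complexes, was the only pair of the 276 called in opposite directions in transcript and gene counts. The transcript covers 7.88% of the gene and lies mostly past its end. Its count was 324, 338 and 311 in *dbp2Δ*, against 265, 251 and 219 in WT, 0.40 ± 0.12 on the log2 scale (adjusted p = 0.030). The gene count was 783, 718 and 771 in *dbp2Δ* and 988, 989.5 and 952 in WT, -0.37 ± 0.09 (adjusted p = 0.016). Both counts separated the strains. The transcript's call was lost without WT replicate 2 or without any *dbp2Δ* replicate, and the gene's without any *dbp2Δ* replicate. With other scalings the call was lost for the transcript (antisense counts scaled on their own, adjusted p = 0.067) and for the gene (library size only, adjusted p = 0.060), and both were lost with the replicate block (adjusted p = 0.064 and 0.058).

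In spanning pairs the gene count could be subtracted from the transcript count, which leaves the excess of the transcript count. Which strand the reads of this excess come from was not tested, and it also holds reads over the flanks of the gene. Of 135 spanning pairs, 46 differences rose and 8 fell, 54 in all, with a median log2 fold change of 0.33. Over all 340 spanning pairs tested 35.6% were called, 27.9% higher and 7.65% lower, and the median was 0.21. Of the 46 that rose, 15 lay over genes that rose, 9 over genes that fell, 17 over genes not called and 5 over genes too low to test. Among the 122 pairs with a tested gene, difference and gene were called in opposite directions in 13 and in the same direction in 17. Over all spanning pairs these shares were 6.77% and 11.9%. Across the 122 pairs the log2 fold changes of difference and gene had a Pearson r of 0.15 and a Spearman rho of 0.07. Those of the whole transcript count and the gene had 0.88 and 0.86 in the same pairs. The gene count enters the difference with a minus sign, so errors in it push the 2 values apart.

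**Figure D5:**
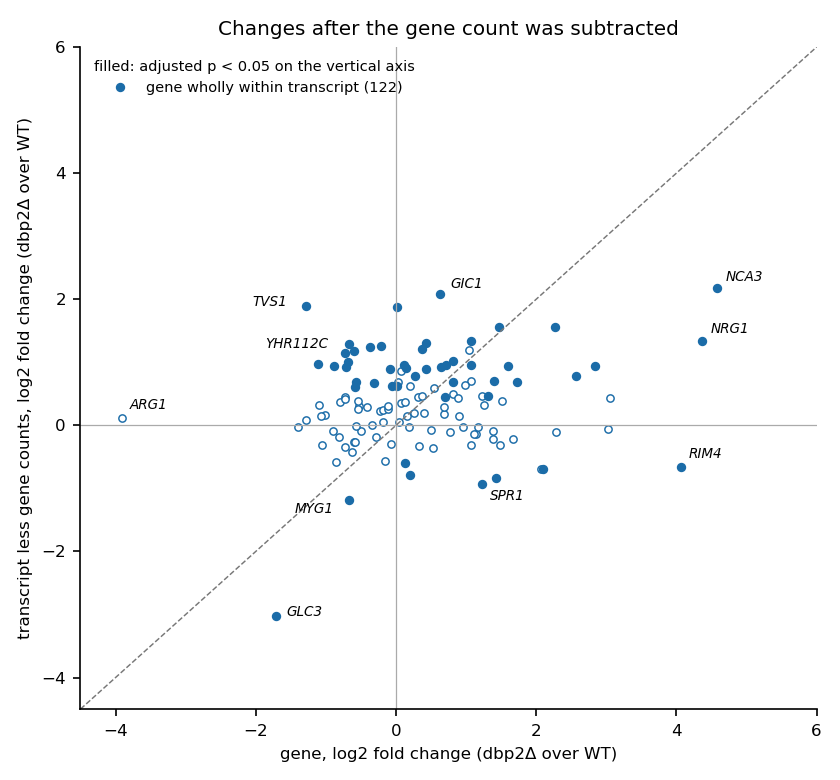
Log2 fold change of transcript less gene counts (vertical) against that of the gene count (horizontal) for 122 spanning pairs, *dbp2Δ* over WT, filled where the difference was called. The points do not follow the dashed line of equality, with *TVS1* at upper left and *RIM4* below 0 at a gene change of 4.06.

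Opposite directions with the gene lower and the difference higher were found at *TVS1*, *YHR112C*, *FET4*, *FPT1*, *SUN4*, *APE4*, *SIP2*, *PER1* and *CCS1*. *TVS1* had 185, 167 and 225 gene counts in *dbp2Δ*, against 405, 601 and 395 in WT, -1.28 ± 0.21 on the log2 scale (adjusted p = 0.0036). Its difference was 284, 298 and 355 in *dbp2Δ* and 72.9, 82.7 and 96.9 in WT, 1.89 ± 0.16 (adjusted p = 0.00025). Both quantities separated the strains, while the whole transcript count, at 504 ± 65.6 in *dbp2Δ* and 551 ± 115 in WT (SD, n = 3 each), overlapped. *FET4*, a low-affinity iron transporter gene, showed the same layout, with gene counts of 729, 752 and 774 in *dbp2Δ* and 1046, 1366 and 999 in WT. Its difference was 586, 659 and 599 in *dbp2Δ* and 252, 264 and 296 in WT, 1.18 ± 0.13 (adjusted p = 0.00062). The gene call of *FET4* was lost without *dbp2Δ* replicate 1. *YHR112C* had gene counts of 411, 428 and 505 in *dbp2Δ* and 710.1, 773 and 665 in WT, and differences of 282, 329.9 and 341 in *dbp2Δ* and 134, 131 and 126 in WT.

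The reverse, a higher gene and a lower difference, was found at *RIM4*, *SPR1*, *GRE1* and *ATO2*. *RIM4*, an RNA-binding regulator of meiotic translation, had 892, 1289 and 1349 gene counts in *dbp2Δ*, against 55.6, 38.8 and 115 in WT, 4.06 ± 0.39 on the log2 scale (adjusted p = 0.00064). Its difference was 195, 195 and 221 in *dbp2Δ* and 349.9, 296 and 319 in WT, -0.66 ± 0.13 (adjusted p = 0.0058), with no overlap. Its whole transcript count was called higher by 1.82, so the direction at *RIM4* depended on whether the gene count was subtracted. *SPR1*, a sporulation glucanase gene, had differences of 77.4, 84.7 and 62.4 in *dbp2Δ* and 126, 149 and 151 in WT, -0.93 ± 0.19 (adjusted p = 0.0061), beside gene counts of 73.8 to 86 in *dbp2Δ* and 28.4 to 39.1 in WT. At *GRE1*, a stress-induced hydrophilin gene, the difference was 71.9, 59.1 and 71.5 in *dbp2Δ* and 129, 103 and 129 in WT, -0.83 ± 0.19 (adjusted p = 0.011), a call lost without *dbp2Δ* replicate 2. Of the 13 opposite pairs, 4 kept both calls in each of the 6 fits without 1 library, and these were *TVS1*, *YHR112C*, *RIM4* and *SPR1*.

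Among the remaining pairs with a lower gene and a higher difference, *APE4*, *SIP2* and *CCS1* differed as follows. At *APE4*, an aminopeptidase gene, the difference was 66.5, 70.6 and 59 in *dbp2Δ*, against 41.7, 33.6 and 26.3 in WT, beside gene counts of 609 ± 36.9 in *dbp2Δ* and 1119 ± 135 in WT (SD, n = 3 each). At *SIP2*, a subunit of the Snf1 kinase complex, it was 81.4, 114 and 119 in *dbp2Δ* and 67.7, 51.7 and 47.3 in WT. At *CCS1*, the copper chaperone of superoxide dismutase, it was 324, 340.2 and 299 in *dbp2Δ* and 214, 221 and 198 in WT. All 3 separated the strains, and the number of fits without 1 library that kept both calls was 4, 2 and 3 of 6. At *ATO2*, a gene of ammonium export, the directions were turned round, with differences of 115, 173 and 134 in *dbp2Δ* and 214, 193 and 277 in WT.

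Where the difference rose and a tested gene was not called, the 5 largest rises were at *BOP2*, *YNR071C*, *SOA1*, *YHP1* and *ARR3*, a set picked after the values were seen. *BOP2* had 368, 361 and 352 counts of difference in *dbp2Δ*, against 123, 68 and 104 in WT, 1.87 ± 0.21 on the log2 scale (adjusted p = 0.00063). Its gene count was 631, 686 and 589 in *dbp2Δ* and 351, 363 and 1177 in WT, so WT replicate 3 stood apart in the gene but not in the difference. Without WT replicate 3 the gene was called higher too, by 0.83 on the log2 scale. *SOA1*, a sulfur compound transporter gene, had differences of 181, 218 and 163 in *dbp2Δ* and 82.5, 70.6 and 81.4 in WT, beside gene counts of 61.3 to 73.3 in *dbp2Δ* and 58.6 to 95.5 in WT that overlapped. *ARR3*, which encodes an arsenite exporter, had differences of 187, 199 and 211 in *dbp2Δ* and 95.5, 73.2 and 89.1 in WT. *YHP1*, a cell cycle repressor gene, had low differences of 48.8 to 63.8 in *dbp2Δ* and 16.5 to 36.4 in WT, a call that was lost without WT replicate 2 or without *dbp2Δ* replicates 1 or 3 (adjusted p = 0.070 to 0.075).

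The largest changes of the difference were at *TYC1*, *NCA3* and *GIC1* upward and at *GLC3*, *MYG1* and *SPR1* downward. At *GIC1*, an effector of the polarity GTPase Cdc42, the difference was 345, 289 and 339 in *dbp2Δ*, against 47.7, 51.7 and 129 in WT, 2.08 ± 0.35 on the log2 scale (adjusted p = 0.0031) and 2.70 without WT replicate 3. At *NCA3* it was 844, 787 and 759 in *dbp2Δ* and 127, 198 and 199.9 in WT, 2.19 ± 0.19 (adjusted p = 0.00025). At *GLC3*, the glycogen branching enzyme, it was 29.9, 52.6 and 39.7 in *dbp2Δ* and 380.2, 369 and 253 in WT, -3.03 ± 0.25 (adjusted p = 0.00025). The gene count of *GLC3* was 311, 306 and 325 in *dbp2Δ* and 234, 1306 and 1556 in WT, which overlapped, so the difference separated the strains where the gene did not. The *GLC3* gene call was lost without WT replicate 2, WT replicate 3 or any *dbp2Δ* replicate. At *MYG1* the difference was 42.1, 32.1 and 37.5 in *dbp2Δ* and 81.6, 106 and 67.4 in WT, a few percent of the transcript count. At *ARG1*, whose transcript count fell by 3.72 on the log2 scale, the difference was 181, 200.3 and 251 in *dbp2Δ* and 168, 143 and 269.7 in WT, which overlapped (0.12 ± 0.25, adjusted p = 0.71).

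At 38 of the 296 loci the gene count was at most 20% of the transcript count in every library. This limit was chosen after the values were seen. Of the 38 transcripts 21 were called higher, 1 lower and 16 were not called, with a median log2 fold change of 0.57, beside 23.1% higher and 19.1% lower over all transcripts tested. Among the 296 from which they were drawn, 36.1% were higher and 12.8% lower. Of the 19 genes of these loci that could be tested, 6 were called higher and none lower, with a median log2 fold change of 0.94. Over all genes tested 19.6% were higher and 22.4% lower. Without 1 library the number of transcripts called higher ran from 14 without *dbp2Δ* replicate 1 to 28 without WT replicate 3. The lower one was opposite *ADH7*, an alcohol dehydrogenase gene, with 276, 264 and 268 counts in *dbp2Δ*, against 736, 766 and 880.4 in WT, -1.56 ± 0.13 on the log2 scale (adjusted p = 0.00028). The gene had 6.81 to 13.6 counts in *dbp2Δ* and 12.1 to 21.7 in WT, at most 4.93% of the transcript in any library. The transcript covers 88.1% of *ADH7* and runs 822 bp past its start.

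Among the 21 that rose, the transcript over the hexose transporter gene *HXT13* had 641, 606 and 698 counts in *dbp2Δ*, against 322, 229 and 364 in WT, 1.09 ± 0.18 on the log2 scale (adjusted p = 0.0034), while *HXT13* itself had 4.54 to 10.3 counts in *dbp2Δ* and 0 to 3.1 in WT. Over *SUL1*, a sulfate permease gene, it averaged 995 ± 44.4 counts in *dbp2Δ* and 522 ± 24.9 in WT (SD, n = 3 each), with a log2 fold change of 0.93 ± 0.12. Over *SPO77*, a gene of spore wall formation, it had 551, 573 and 478 counts in *dbp2Δ* and 173, 151 and 196 in WT, 1.62 ± 0.14 (adjusted p = 0.00041). None of the 3 transcripts overlapped between strains. *SPO77* was called higher as a gene too, by 2.93 on the log2 scale without WT replicate 3, and that gene call was lost without *dbp2Δ* replicate 1. Over *MEK1*, a meiotic kinase gene, the count was 252, 178 and 213 in *dbp2Δ* and 122, 114 and 69 in WT, and over *FBP1*, fructose-1,6-bisphosphatase, it was 271, 276 and 313 in *dbp2Δ* and 204, 185 and 184 in WT. The largest rise of the 21 was opposite *PAU2*, a seripauperin gene of a large family with similar copies, with 162, 202 and 210.0 counts in *dbp2Δ* and 59.9, 49.9 and 62 in WT. Over *YHL012W*, whose own count was 0 to 5.14 in *dbp2Δ* and 2.6 to 17 in WT, the transcript count was 555, 665 and 605 in *dbp2Δ* and 257, 217 and 181 in WT. Both transcripts were apart between strains, with log2 fold changes of 1.74 ± 0.18 and 1.48 ± 0.16. Over *NDT80*, the transcription factor of mid-meiosis, the count was 542, 620.1 and 588 in *dbp2Δ* and 353, 377 and 425 in WT, while the gene counts overlapped. Over *TDA8* it was 638, 711 and 788 in *dbp2Δ* and 314, 238 and 252 in WT, and that transcript lies almost wholly upstream of the gene. These 4 also separated the strains. At *GAL10*, the galactose epimerase gene, the transcript had 362, 386 and 371 counts in *dbp2Δ* and 309, 257 and 254 in WT, 0.45 ± 0.12 (adjusted p = 0.021), a call lost without WT replicate 2 or any *dbp2Δ* replicate. It lies over an annotated non-coding gene of its own strand.

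The genes opposite these transcripts were also grouped by function. The groups were chosen with earlier results of these data known. Their shares therefore describe the listed genes only, and enrichment of a function was not tested. Over all features tested, 23.1% of transcripts were called higher and 19.1% lower, and 19.6% of genes higher and 22.4% lower. Of 12 genes of carbon uptake and galactose use, 7 transcripts were called higher and none lower, and 7 of the 10 genes tested rose, beside 19.6% higher over all genes tested. At *JEN1*, the lactate transporter, the transcript had 593, 665 and 681 counts in *dbp2Δ*, against 169, 199.8 and 308 in WT, and the gene had 265, 395 and 423 in *dbp2Δ* and 35.6, 39.6 and 107 in WT. The ratio was called lower at 5 of these 10 pairs and higher at none, that is, the gene had the higher log2 fold change, beside 6.98% lower over all ratios tested. Only 2 or 3 of the 5 were called without *dbp2Δ* replicate 1, 2 or 3, WT replicate 1 or WT replicate 2. At *GAL1*, galactokinase, the transcript had 329, 371 and 328 counts in *dbp2Δ* and 245, 179 and 164 in WT. Of 17 genes of gluconeogenesis, the glyoxylate cycle, fatty acid oxidation, respiration and their regulators, 8 transcripts were called higher and none lower, and 8 of 16 genes rose, but 4 transcripts were called without *dbp2Δ* replicate 3. In the 6 spanning pairs of this group 1 difference was called higher and none lower, beside 27.9% and 7.65% over all spanning pairs tested. The 6 spanning pairs of carbon uptake and galactose use had 3 higher and 1 lower. *PCK1*, phosphoenolpyruvate carboxykinase, had 137, 112 and 112 transcript counts in *dbp2Δ*, against 25.2, 33.6 and 58.1 in WT, and *FOX2*, a peroxisomal β-oxidation enzyme, had 267, 221 and 283 in *dbp2Δ* and 114, 101 and 177 in WT, a call lost without *dbp2Δ* replicate 3. When the gene count was subtracted in proportion to the overlap, the transcript call was lost at *FOX2* (adjusted p = 0.14) and *GAL1* (0.073) and kept at *JEN1* (0.032).

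Of 11 genes of meiosis and sporulation, 8 transcripts were called higher and none lower, beside 23.1% and 19.1% over all transcripts tested. Of the 9 genes tested, 5 rose, beside 19.6% over all genes tested. Without *dbp2Δ* replicate 1, 6 transcripts and 3 genes of the group were called higher. These genes are held low in haploid cells on glucose. The strains did not overlap in the transcript counts of *RIM4* and *SPO77* given above. Of 13 cell wall genes, 6 transcripts rose and 3 fell, beside 23.1% and 19.1% over all transcripts tested. Only 1 of these was called lower without any one *dbp2Δ* replicate. *PRY1* and *PRY2*, which encode secreted sterol-binding proteins, rose in both counts, with transcript counts at *PRY1* of 3755, 3411 and 4469 in *dbp2Δ* and 1095, 1106 and 1836 in WT. *SUN4*, a relative of *NCA3*, fell instead, by 0.60 on the log2 scale in the transcript count and by 0.68 in the gene count, while its difference rose by 1.00. The call of the *SUN4* transcript was lost without WT replicate 2 or without any *dbp2Δ* replicate.

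Of 8 genes of iron, copper and manganese handling, 2 transcripts rose and 2 fell, and 2 genes rose and 4 fell of 7 tested, beside 22.4% lower over all genes. Without *dbp2Δ* replicate 1, 1 gene was called higher and 2 lower. *SMF1*, a manganese transporter gene, had 1634, 1869 and 1749 transcript counts in *dbp2Δ*, against 602, 644 and 735 in WT, and *FET3* moved the other way. After subtraction of the gene count in proportion to the overlap, the *SMF1* call was lost (log2 fold change 0.56, adjusted p = 0.75) and *FET3* turned higher. Of 12 genes of nitrogen and sulfur use, 4 transcripts rose and 1, *ARG1*, fell, which became 8 and 3 without WT replicate 3 and 3 and 0 without any one *dbp2Δ* replicate. At *DUR12*, urea amidolyase, the transcript had 743, 609 and 758 counts in *dbp2Δ* and 176, 214 and 225 in WT. Of 10 genes of reserve carbohydrates and stress, 4 rose and 1, *GLC3*, fell, with 2 called higher without any one *dbp2Δ* replicate. None of the transcripts over 4 mating genes was called, though leaving out WT replicate 2 or WT replicate 3 gave 1 called higher. Over the 8 groups together, 39 of 87 transcripts (44.8%) rose and 7 (8.05%) fell, beside 23.1% and 19.1% over all transcripts tested. Among all the long antisense transcripts of single genes, from which the groups were drawn, 36.1% rose and 12.8% fell. Because the groups were chosen with earlier results known, these differences in share cannot show that a function is enriched.

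The highest transcript counts per kb in WT were over *ARG1*, *HXT2* and *PRY2*. The place of *ARG1* rests on WT replicate 3, with 13646 transcript counts per kb over all WT libraries and 2886 without that library, where it ranks 11 of the 296. *HXT2* and *PRY2* then rank 1 and 3. Over *HXT2*, a high-affinity glucose transporter gene, the transcript had 16289, 16228 and 16323 counts in *dbp2Δ*, against 14156, 15998 and 4573 in WT, and the gene count was 99.6% of it in *dbp2Δ* and 99.9% in WT. WT replicate 3 was the low library here, and the log2 fold change was 0.49 ± 0.43 (adjusted p = 0.38). Over *PRY2* the transcript had 14149, 13621 and 15936 counts in *dbp2Δ* and 5966, 6632 and 8045 in WT, 1.08 ± 0.23 (adjusted p = 0.0081), and its difference also rose, by 1.34 ± 0.23. *CSS1*, *AAD14*, *HXT13*, *HXT2* and *FLO11* belong to gene families with similar copies, and reads could be shared among copies, so their values are less certain.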

How the data were processed

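The authors deposited raw counts for 7032 genes and for non-coding transcripts overlapping a gene on the opposite strand, 1 column per library. Per the submitters' processing notes, featureCounts, edgeR and build R64 were used, without versions, and neither aligner nor strand setting is given in the sources used. Transcripts, genes and transcript-to-gene differences were tested with edgeR 4.0.16 under R 4.3.3 (quasi-likelihood, filterByExpr, TMM from gene counts), and ratios as the strand by strain interaction with a term per library. Each fit used the whole table, and a call is a Benjamini-Hochberg adjusted p under 0.05. Normalized counts are scaled to the mean effective library size. The common biological coefficient of variation was 20.3% for transcripts. The fits were tested on simulated data.

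Named members had the largest called changes per test, direction or list (5, 3 or 2), the greatest length, or the highest density. The 13 opposite pairs, the 38 loci of low gene share, the CUTs and the pairs with an uncalled gene were chosen after their values were seen. The members and lists were chosen with earlier results of these data known. Alternatives used DESeq2 1.42.0, limma-voom 3.58.1, other scalings and filters, a replicate block and each library left out. Python 3.11.15 was used for other steps.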

Additional observations from a re-analysis of the deposited data

How the results depend on the processing

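Among the counts of calls, an adjusted p under 0.25 gave 123 ratios and 91 differences, and without 1 library the ratios called ran from 28 to 63. All other alternatives left the 4 counts of calls within 1.5 times. DESeq2 called 158 transcripts, 150 genes and 53 differences, and a fit with the replicate block called 129 transcripts, 137 genes and 47 differences. The replicate numbers do not pair the strains (correlations of same-numbered libraries -0.084, -0.12 and 0.0024), so the block says nothing of pairing. Subtracting the gene count in proportion to the overlap, an alternative chosen after seeing the data, gave 102 called transcripts. Of the transcripts called higher before, 59 stayed higher, 42 lost the call and 3 turned. Of those called lower before, 6 stayed lower, 27 lost the call and 4 turned. A further 20 were newly called higher and 10 newly called lower. Most of the lower calls thus did not outlast the subtraction. Among those named, the subtraction turned the log2 fold change at *RIM4* (-0.66), *ARG1* (0.12), *FET3* (11.74, with WT values at 0 after subtraction), *APE4* (0.95), *SUN4* (1.00) and *ATG18* (0.33). Over the named members, 2227 values kept direction and side of the threshold, 172 lost and 36 gained a call, 39 that were not called changed sign and 6 that were called reversed, while DESeq2 gave no adjusted p for *ARG1*. Depth limits the pairs whose gene has few counts, 20 of which were not tested.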
